A study of Mus musculus with 6 samples.

Results

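The genes described here encode the transforming growth factor beta (TGF-beta) and bone morphogenetic protein (BMP) superfamily: its ligands, its receptors, the Smad proteins that carry the signal, and a few inhibitors and products. They were picked out by gene symbol, as the array files give it; the rule itself uses no measured value, though it was drawn up with earlier results of these data known. The rule took Tgfb1 to Tgfb3, Tgfbr1 to Tgfbr3, Tgfbi, the numbered Bmp, Bmpr, Gdf and Smad genes, the Inhb and Acvr genes, Inha, Nog, Grem1 and Bambi, and left out Gdf15. It found 53 genes with 78 probes among the 34844 gene names on the array. Of these, 46 genes passed the filter on dim probes, which asks that 3 or more of the 6 arrays give a signal well above background. They stand among 26178 genes that passed. The other 7 genes, Bmp15, Bmp8b, Gdf2, Inhbc, Smad9, Bambi and Grem1, did not pass and were not tested.

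RNA came from inguinal fat, a fat depot beneath the skin, of male C57BL/6J mice, and each of 6 samples was read on a single 1-colour Agilent array. The 3 samples titled DIO_CR_WR are from mice that at 2 months of age began 1 month on a diet that drew 60% of its energy from fat, were then restricted in calories for about 3 weeks to the weight of chow-fed mice of their age, and finally regained weight on the same fatty diet eaten freely. The 3 samples titled DIO are, by the protocol, from mice kept on chow until that last period and then given the fatty diet freely, so both groups ended on it. In the protocol the name DIO belongs to the first of these groups and the second is called CTR; here the titles are used throughout. The age labels are 6, 7 and 8 months for DIO and 9, 10 and 11 months for DIO_CR_WR. They increase in steps of 1 month along the list of samples and may not be true ages; taken as written they do not overlap, and age and diet history cannot be told apart. Nothing in the labels says whether a sample is a single mouse or a pool, so the p-values measure the spread between these samples, part of which may be technical. All 8 adipocyte markers looked at were well above background on all 6 arrays.

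Superfamily ligands are secreted dimers that bring together type I and type II receptor kinases. TGF-betas, activins and several GDFs act through Smad2 and Smad3, while BMPs act through Smad1, Smad5 and Smad9. Both branches share Smad4 and are damped by the inhibitory Smad6 and Smad7. In adipose tissue TGF-beta is known for driving matrix production and restraining adipocyte formation, BMP4 and BMP7 for promoting commitment to white and brown fat cells, and the receptor ALK7 (Acvr1c) for limiting fat breakdown in adipocytes.

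The probe sequences below are shown because the size of a difference could depend on the probe that read it. Each is the first 30 bases of a 60-base probe, 5′ to 3′, as the array files give it, and the positions of those 30 bases are on build mm9. The 2 probes of Tgfb2 both separated the groups, those of Gdf3 ranked the arrays differently, and the dimmer Gdf1 probe was measurable in DIO only.
Gdf1 brighter probe (chr8:72855399-72855428, plus strand): gaccgccccacgcaaaagcagggactgttt
Gdf1 dimmer probe (chr8:72853479-72853508, plus strand): agtctcttgtcctcaacttcagccatccag
Tgfb2 brighter probe (chr1:188449363-188449392, minus strand): attggaaatacgcccaagatcgaacagctt
Tgfb2 dimmer probe (chr1:188447564-188447593, minus strand): tcatccattatttccctgatttcattgaaa
Gdf3 brighter probe (chr6:122555451-122555480, minus strand): gccaccaccgtctggcttcctggggttttc
Gdf3 dimmer probe (chr6:122556370-122556399, minus strand): ctatcaggatagtgataagaacgtcattct

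Gdf1 encodes a ligand known from left-right patterning of the embryo, and it shares a transcript with Cers1, a ceramide synthase. In the array files both Gdf1 probes list a RefSeq accession of Cers1 beside those of Gdf1. None of the other 76 member probes lists a RefSeq accession of a second gene. Some of them list no RefSeq accession at all, so a second gene could not be seen there. The probes taken for Bmp2k and Acvr1b are among these. The bases shown of the dimmer probe also occur in the 250 bases before one of 2 RefSeq starts of Gdf1, so that probe reads RNA begun further upstream. The other RefSeq start is the start of Cers1 as well. Values given here for Gdf1 are therefore those of Gdf1 and Cers1 RNA together. The 250 bases before this shared start (RefSeq, GRCm38.p6, chr8:70315525-70315774, plus strand) are printed with the letters CAGAC or GTCTG, the core that Smads bind read on either strand, and GGCGCC, a palindrome that also binds Smads, in capitals:
Gdf1 and Cers1 shared promoter: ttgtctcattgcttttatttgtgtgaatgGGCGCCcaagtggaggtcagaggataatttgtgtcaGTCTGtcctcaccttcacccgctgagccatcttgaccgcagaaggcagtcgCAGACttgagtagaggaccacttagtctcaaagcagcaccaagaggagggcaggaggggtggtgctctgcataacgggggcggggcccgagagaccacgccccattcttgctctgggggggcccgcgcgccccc
The corresponding 250 bases before Tgfb2 (GRCm38.p6, chr1:186705990-186706239, minus strand), the member with the smallest unadjusted p in limma after Gdf1, hold 2 matches of the first motif and none of the second:
Tgfb2 promoter: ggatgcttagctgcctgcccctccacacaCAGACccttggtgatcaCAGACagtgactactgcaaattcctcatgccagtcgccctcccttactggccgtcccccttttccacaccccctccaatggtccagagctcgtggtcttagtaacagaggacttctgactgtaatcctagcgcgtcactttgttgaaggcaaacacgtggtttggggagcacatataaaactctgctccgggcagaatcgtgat
The 250 bases before Smad6, not printed here, hold no match of either motif. A promoter was listed for 37 of the 53 genes. CAGAC or GTCTG stood in at least 1 listed promoter of 18 of them (48.6%), beside 45.8% of all 27025 genes with a promoter in the table, and GGCGCC in 9 of them (24.3%), beside 10.8%. The members' promoters also held more G and C, with a median of 64.6% against 52.4%. The part of base composition in the share with GGCGCC was not tested. These matches describe letters only and are no evidence of binding.

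Expression was compared as log2 intensity minus the 75th percentile of the same array, here called the level. A log2 fold change is the mean level on the DIO_CR_WR arrays minus that on the DIO arrays, with its standard error (SE) from limma, n = 3 arrays a group. No superfamily gene passed an adjusted p under 0.05 in limma's moderated test with Benjamini-Hochberg adjustment, and neither did any of the 26178 genes (0%); the smallest adjusted p was 0.108. At an unadjusted p under 0.05, 3 of the 46 members were higher in DIO_CR_WR (Bmp2k, Smad1 and Smad7), where 5.38% of all genes were. There were 9 lower (Gdf1, Tgfb2, Acvr2b, Inhbe, Smad3, Bmpr1a, Tgfb3, Nog and Gdf7), where 21.8% of all genes were. Inhbe counts among these 9 without a measured level in DIO_CR_WR, where it was well above background on no array, which leaves 8 lower genes measured in both groups. The 3 DIO_CR_WR values lay wholly above the 3 DIO values for 3 members, beside 7.18% of all genes, and wholly below for 9 (8 without Inhbe), beside 26.8%. The median log2 fold change of the members was -0.19 and that of all genes -0.20, and 23 of the 46 lay above the all-gene median. As a set, the members thus had counts near those of the array at large, and the results are those of single genes. In bulk tissue, fewer cells of a type and less RNA per cell cannot be told apart.

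**Figure D1:**
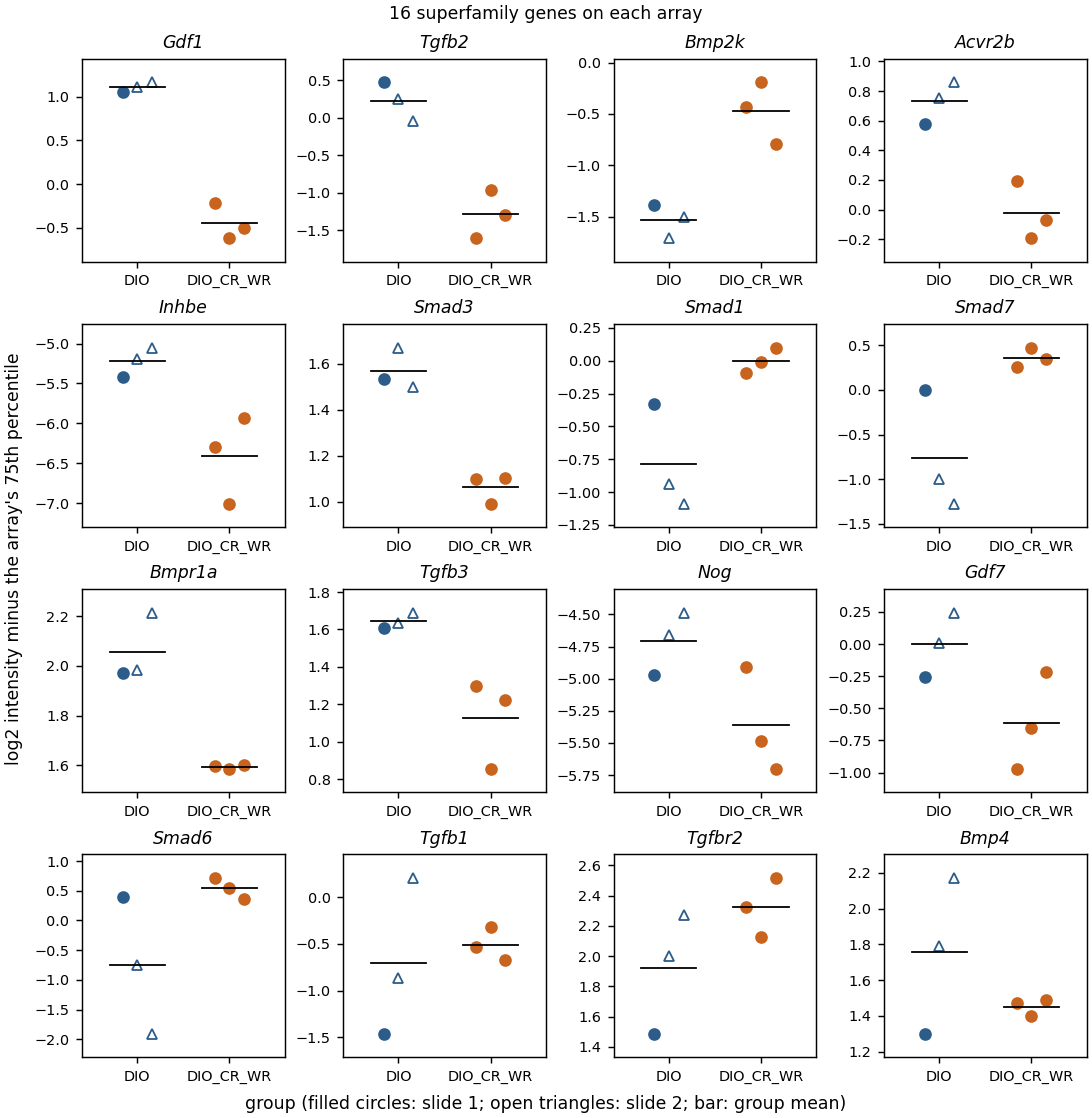
Level (log2 intensity minus the array's 75th percentile) of 16 superfamily genes on each of the 6 arrays, with the group mean as a bar; filled circles are arrays of slide 1 and open triangles those of slide 2. For Gdf1, Tgfb2 and Bmp2k the DIO arrays of both slides stand apart from the DIO_CR_WR arrays, whereas for Smad6 and Smad7 the DIO array of slide 1 lies close to the DIO_CR_WR arrays.

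One array bears on all that follows. The share of probes called well above background ran from 68.2% to 79.2% in DIO and from 51.1% to 65.6% in DIO_CR_WR, which limits what can be said of dim genes. The arrays were on 2 slides: slide 1 held DIO replicate 1 and the 3 DIO_CR_WR arrays, and slide 2 held DIO replicates 2 and 3. For 30 of the 46 members (65.2%), the gap between the slides within DIO was larger than the difference between the groups on slide 1, and this was so for 56.7% of all genes. On slide 1 the single DIO array lay below all 3 DIO_CR_WR arrays for 13 members, beside 22.7% of all genes, and above them for 13, beside 39.8%. With slide as a block no member passed the adjusted threshold, 3 were higher at an unadjusted p under 0.05 (4.57% of all genes), namely Bmp2k, Bmp3 and Tgfbr2, and 4 were lower (6.01%), namely Gdf1, Tgfb2, Acvr2b and Smad3. All 12 members at an unadjusted p under 0.05 kept their sign on slide 1, and 10 kept at least 0.5 of their log2 fold change. The slide 1 arrays also served to pick these 12 members. Where the groups did not overlap, the sign on slide 1 was fixed in advance. Neither count is therefore independent evidence. Inhbe, well above background on no DIO_CR_WR array, is among these 12, these 10 and the 13 members with the DIO array above. The choice of scale matters too: scaled to the E1A spike-in probes instead, the median of all genes moved from -0.20 to 0.30, 10 members were higher at an unadjusted p under 0.05 (21% of all genes) and 3 lower (2.95%). These 3 were Gdf1, Tgfb2 and Inhbe, the last again without a measured level in DIO_CR_WR.

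Among the TGF-beta ligands, which the cells secrete in a latent form, the 3 genes differed from each other. Tgfb2 had levels of 0.47, 0.25 and -0.04 on the DIO arrays and -1.61, -0.96 and -1.29 on the DIO_CR_WR arrays. The 2 groups did not overlap, and DIO replicate 1, the array that shares a slide with the DIO_CR_WR arrays, had the highest level of all. The log2 fold change was -1.51 (SE 0.23), a level 2.86-fold higher in DIO, with an unadjusted p of 0.00043 and an adjusted p of 0.108 in limma. It was -1.76 on slide 1 and -1.01 with spike-in scaling. The second Tgfb2 probe, 1799 bases away on the genome by the positions above, gave -1.09 (SE 0.21), again without overlap.

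Tgfb3, the third isoform, had levels of 1.61, 1.63 and 1.69 in DIO and 1.30, 0.86 and 1.22 in DIO_CR_WR. The DIO values lay close together and above all DIO_CR_WR values, with a log2 fold change of -0.52 (SE 0.17; limma adjusted p = 0.137). With spike-in scaling the value was -0.02. Tgfb1, the isoform most abundantly made by immune cells and platelets, had levels of -1.46, -0.86 and 0.21 in DIO and -0.53, -0.32 and -0.67 in DIO_CR_WR. Here the DIO arrays spanned the whole range and the DIO_CR_WR arrays lay inside it, so the log2 fold change of 0.20 (SE 0.41) was smaller than its error. Its probe has up to 10 spots on an array, whose SD of log2 intensity was at most 0.11 within an array. That covers spot noise alone, and the parts of labelling, hybridization and slide in the spread between the DIO arrays were not tested. On slide 1 the difference was 0.95, and without DIO replicate 1 it was -0.18.

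None of the 8 measured BMP ligands had an unadjusted p under 0.05 in limma. Bmp2, a ligand of the BMP receptors that favours bone and cartilage formation, had levels of -0.88, -0.56 and -0.06 in DIO and -0.35, -0.50 and -0.66 in DIO_CR_WR. The groups overlapped fully, with a log2 fold change of -0.01 (SE 0.24) and a 95% interval of -0.58 to 0.57. Bmp4, which commits precursor cells to the fat lineage, had levels of 1.30, 1.79 and 2.17 against 1.47, 1.40 and 1.49. The DIO arrays again enclosed the others, the log2 fold change was -0.30 (SE 0.24), and the dimmer Bmp4 probe gave 0.42 with the opposite sign. The other 6 BMP ligands ranged from -0.28 (Bmp10 and Bmp8a) to 0.47 (Bmp6, an iron-sensing ligand best known from liver vessels), the last with an SE of 0.23 and only 0.04 on slide 1.

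Of the 8 measured GDF genes, 2 had an unadjusted p under 0.05, both lower. The Gdf1 probe that was used had levels of 1.055, 1.104 and 1.160 in DIO and -0.22, -0.62 and -0.50 in DIO_CR_WR. All 3 DIO arrays, on both slides, lay within 0.106 of each other, and the highest DIO_CR_WR array lay 1.28 below the lowest of them. This log2 fold change, -1.55 (SE 0.16), was the one with the smallest unadjusted p among the 46 members (5.0e-05; limma adjusted p = 0.108), and the level was 2.94-fold higher in DIO. It was -1.50 on slide 1 and -1.05 with spike-in scaling. The adjusted p was 0.044 when only probes well above background on all 6 arrays were tested, where 0.313% of genes passed, and 0.041 with a trended and robust variance, where 0.0993% did. Over the alternatives the adjusted p ran from 0.024 to 0.41.

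The dimmer Gdf1 probe, whose bases lie before the RefSeq start not shared with Cers1, had measured means of -4.76 in DIO and -6.22 in DIO_CR_WR. It was well above background on all 3 DIO arrays and on none of the DIO_CR_WR arrays, so only a bound can be given there, a level at least 1.31-fold higher in DIO. Since Cers1 is known from skeletal muscle and brain, the muscle markers are given beside it. All 6 were measured on all 6 arrays, and 3 were lower at an unadjusted p under 0.05 in limma, beside 21.8% of all genes. The DIO_CR_WR values lay wholly below the DIO values for 3 of them, beside 26.8% of all genes. The median log2 fold change of the 6 markers was -0.48. Their score, the mean deviation of the list from its average over the arrays less that of all genes, was 0.23, 0.18 and 0.02 in DIO and 0.08, -0.36 and -0.15 in DIO_CR_WR. The muscle score overlapped between the groups, and the part of muscle RNA in the Gdf1 result was not tested.

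Gdf7, a ligand of the BMP branch, had levels of -0.26, 0.01 and 0.24 in DIO and -0.97, -0.66 and -0.22 in DIO_CR_WR. These touch, since DIO replicate 1 was below DIO_CR_WR replicate 3, and the log2 fold change was -0.61 (SE 0.24; limma adjusted p = 0.174). Its other probe gave -0.92. Gdf3, a ligand of ALK7 that adipose macrophages are known to make, had levels of -2.24, -2.31 and -1.87 in DIO and -0.87, -2.01 and -2.13 in DIO_CR_WR on its brighter probe, with overlap and a log2 fold change of 0.47 (SE 0.36). On its dimmer probe the levels were -4.56, -3.59 and -2.73 against -2.03, -1.44 and -1.78. These did not overlap, and the log2 fold change was 1.88 (SE 0.46; adjusted p = 0.127 in a limma fit of every probe). The 2 Gdf3 probes thus ranked the arrays differently, and no single value stands for the gene. Macrophage markers, given beside it, had scores of -0.49, -0.35 and 0.08 in DIO and 0.25, 0.20 and 0.30 in DIO_CR_WR. Of these 7 markers, 2 were higher at an unadjusted p under 0.05 in limma, beside 5.38% of all genes. Their part in the Gdf3 values was not tested.

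Gdf10, which is expressed in fat precursors and acts against adipogenesis, had a log2 fold change of 0.54 (SE 0.31), from levels of -1.35, -1.72 and -2.22 in DIO and -0.76, -1.31 and -1.60 in DIO_CR_WR. The groups overlapped, and on slide 1 the difference was 0.12. The remaining 4 GDF genes ranged from -0.52 (Gdf5) to 0.11 (Gdf9), each within 2 SE of 0 on all 6 arrays. The dimmer Gdf5 probe gave -0.70 (SE 0.28), without overlap and with an unadjusted p of 0.045 in a limma fit of every probe.

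Activins are dimers of inhibin beta subunits. Inhba, the subunit of activin A, which keeps fat precursors from maturing, had levels of -3.15, -3.49 and -4.03 in DIO and -3.09, -2.95 and -3.27 in DIO_CR_WR, with a log2 fold change of 0.45 (SE 0.25). Here DIO replicate 1 lay among the DIO_CR_WR arrays, and the difference on slide 1 was 0.04. Inhbb, the subunit of activin B that adipocytes secrete, differed by -0.05 (SE 0.26), from levels of 1.36, 1.25 and 2.10 against 1.47, 1.73 and 1.36. Inhbe, best known as a liver product that acts on fat, was well above background on all 3 DIO arrays and on no DIO_CR_WR array. Its measured means were -5.22 and -6.41, and since the detection limit of the DIO_CR_WR arrays lay above the DIO mean, no fold is given although limma's unadjusted p was 0.0059.

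**Figure D2:**
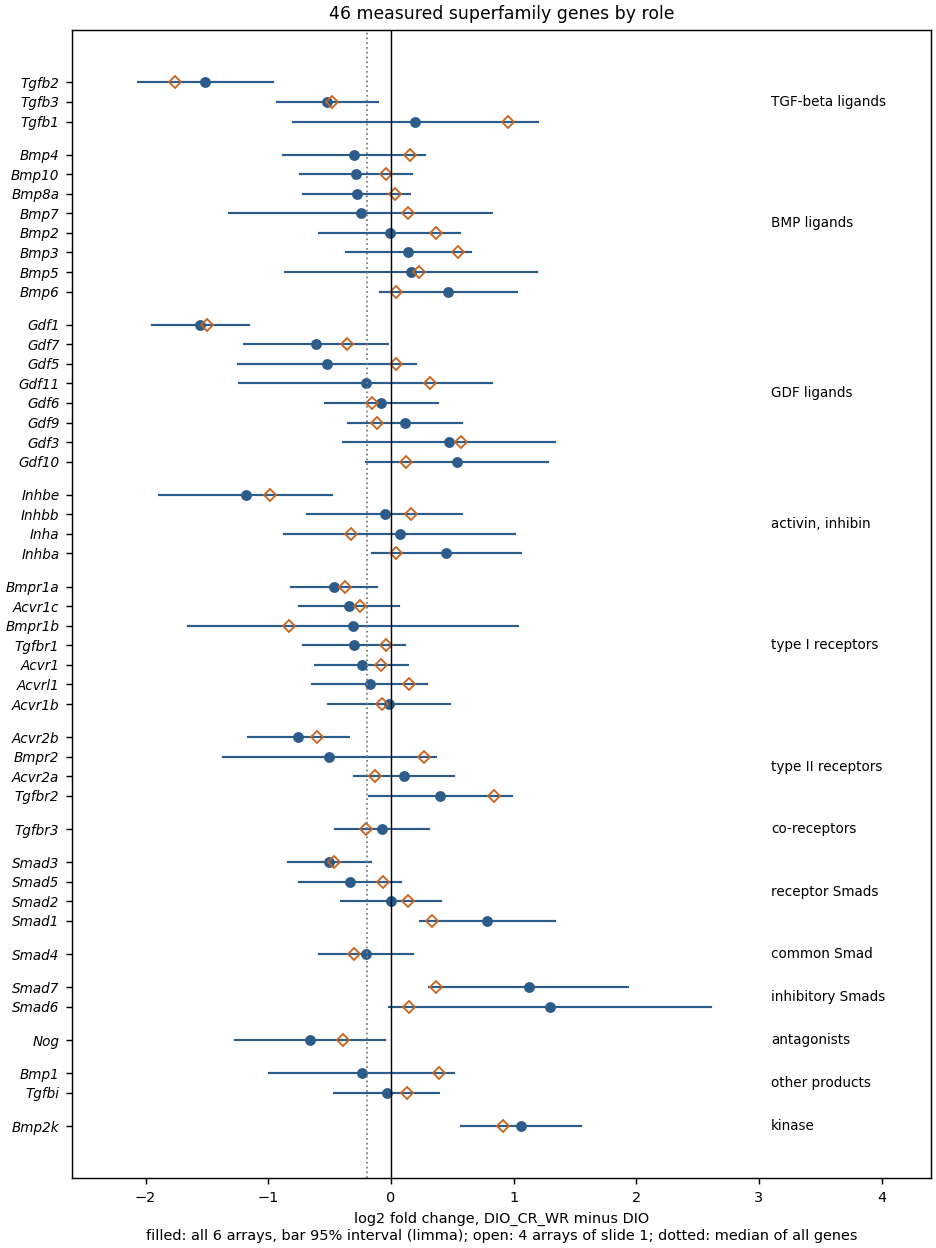
Log2 fold change of the 46 measured genes, DIO_CR_WR minus DIO, in order of role; filled points with bars are the value over 6 arrays and its 95% interval, and open diamonds are the value over the 4 arrays of slide 1; Inhbe was not measured above background in DIO_CR_WR. Tgfb2, Gdf1, Acvr2b, Smad3 and Bmp2k have both values on the same side of 0 and close together, while the slide 1 values of Smad6 (0.15) and Smad7 (0.36) are far below those over 6 arrays (1.30 and 1.12).

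Among the receptors, all 7 type I kinases had a negative log2 fold change, from -0.46 to -0.02, on a scale where the median of all genes was -0.20, and 1 had an unadjusted p under 0.05. With spike-in scaling, which puts the all-gene median at 0.30, all 7 were positive instead. That one was Bmpr1a, a BMP receptor needed for brown fat formation, with levels of 1.97, 1.98 and 2.21 in DIO and 1.60, 1.59 and 1.60 in DIO_CR_WR. The 3 DIO_CR_WR arrays were nearly identical and all below the DIO arrays (log2 fold change -0.46, SE 0.15; limma adjusted p = 0.133), but with spike-in scaling the value was 0.04. Acvr1c, which encodes ALK7 and is typical of mature adipocytes, had levels of 2.12, 2.19 and 2.31 against 1.83, 2.10 and 1.67. They did not overlap and the log2 fold change was -0.34 (SE 0.17). Of 8 adipocyte markers, 2 were lower at an unadjusted p under 0.05 in limma, beside 21.8% of all genes. The DIO_CR_WR values lay wholly below the DIO values for 3 of the 8, beside 26.8% of all genes. The adipocyte scores overlapped between the groups (-0.07 to 0.12 in DIO, -0.14 to 0.19 in DIO_CR_WR), and their part in the Acvr1c value was not tested. The dimmer Acvr1c probe gave -0.67 (SE 0.27), with an unadjusted p of 0.044 in a limma fit of every probe. Tgfbr1, the type I receptor of TGF-beta, had -0.30 (SE 0.17) on its brighter probe and 0.32 on its dimmer one.

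The 4 type II receptors differed in sign. Acvr2b, which binds activins, myostatin and several GDFs, had levels of 0.58, 0.76 and 0.86 in DIO and 0.19, -0.20 and -0.07 in DIO_CR_WR. The groups did not overlap, and the log2 fold change was -0.76 (SE 0.17; limma adjusted p = 0.118), or -0.60 on slide 1 and -0.25 with spike-in scaling. Its close relative Acvr2a had 0.11 (SE 0.17). Tgfbr2, the receptor that binds TGF-beta first, had levels of 1.49, 2.00 and 2.27 in DIO and 2.33, 2.12 and 2.52 in DIO_CR_WR. Only DIO replicate 3 reached into the range of the others, and the log2 fold change was 0.40 (SE 0.24), with 0.84 on slide 1 and 0.50 from its second probe. Bmpr2, the BMP type II receptor, had levels of -0.71, 0.23 and 0.65 against -0.49, -0.67 and -0.18, a difference of -0.50 (SE 0.36) whose sign turned on slide 1 (0.27). Tgfbr3, or betaglycan, which presents TGF-beta2 to the receptors and binds inhibin, had -0.07 (SE 0.16) with a 95% interval of -0.45 to 0.31.

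Among the Smads that receptors activate, values went both ways, from -0.50 to 0.78. Smad3, the transcription factor of the TGF-beta and activin branch, had levels of 1.53, 1.67 and 1.50 in DIO and 1.1, 0.99 and 1.1 in DIO_CR_WR. No values overlapped, and the log2 fold change was -0.50 (SE 0.14; limma adjusted p = 0.127) with -0.47 on slide 1 and -1.26 from its dimmer probe, which was well above background on 2 of 3 DIO_CR_WR arrays. With spike-in scaling, however, Smad3 had a difference of 0.00, so its direction rests on the scale chosen. Smad2, its partner in the same branch, had 0.00 (SE 0.17). The shared Smad4 had levels of 2.33, 2.30 and 2.05 against 1.94, 1.97 and 2.17, which overlapped, with a log2 fold change of -0.20 (SE 0.16) that equals the median of all genes to 2 decimals.

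Smad1, of the BMP branch, had levels of -0.33, -0.94 and -1.09 in DIO and -0.09, -0.01 and 0.10 in DIO_CR_WR. All DIO_CR_WR arrays were higher (log2 fold change 0.78, SE 0.23; limma adjusted p = 0.130), yet the DIO array on the same slide was the nearest, and on slide 1 the difference was 0.33. The second Smad1 probe gave 0.19. Smad5, its paralog in the branch, had -0.34 (SE 0.17) on one probe and 0.41 on the other.

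The inhibitory Smads are themselves induced by the signals they damp. Smad7, which blocks the TGF-beta receptor, had levels of -0.002, -1.003 and -1.274 in DIO and 0.26, 0.48 and 0.35 in DIO_CR_WR. The log2 fold change was 1.12 (SE 0.34; limma adjusted p = 0.131), with no overlap, but DIO replicate 1 lay 0.26 below the nearest DIO_CR_WR array while the other DIO arrays lay 1.26 and 1.53 below it. Smad6, which blocks mainly BMP receptors, had levels of 0.39, -0.75 and -1.91 against 0.72, 0.55 and 0.36. Here DIO replicate 1 fell within the DIO_CR_WR range, and the log2 fold change of 1.30 (SE 0.55) had an unadjusted p of 0.053 in limma. The values on slide 1 were 0.36 for Smad7 and 0.15 for Smad6. Smad6 in particular is abundant in endothelial cells. The 7 endothelial markers had scores of -0.07, -0.25 and -0.12 in DIO and 0.20, 0.16 and 0.07 in DIO_CR_WR. Of these markers, 2 were higher at an unadjusted p under 0.05 in limma, beside 5.38% of all genes. Their part in the Smad6 and Smad7 values was not tested.

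Leaving out DIO replicate 1 changed the number of calls, among the members as among all genes. Without it, 7 of the 46 members passed an adjusted p under 0.05 in limma, in a fit where 15.4% of all genes did: Smad7 (log2 fold change 1.50), Gdf1 (-1.58), Smad1 (1.01), Tgfb2 (-1.39), Bmp2k (1.14), Smad6 (1.87) and Acvr2b (-0.83). In that fit the 2 remaining DIO arrays are all of slide 2 and the 3 DIO_CR_WR arrays all of slide 1, so slide and group cannot be told apart. The share of members that passed was near that of all genes. Over all 6 arrays Gdf1 had -1.55 and Tgfb2 -1.51, which moved little, while Smad7 had 1.12 and Smad6 1.30.

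Noggin (Nog), which traps BMP ligands outside the cell, was the only antagonist of the rule that passed the filter. It was well above background on 3 DIO arrays and 1 DIO_CR_WR array, with levels of -4.97, -4.66 and -4.49 against -4.91, -5.48 and -5.70, and the groups overlapped. Its log2 fold change of -0.66 (SE 0.25; limma adjusted p = 0.166) therefore lies near the detection limit. Tgfbi, a matrix protein named for its induction by TGF-beta, had -0.03 (SE 0.18), and Bmp1, a protease that trims procollagen and is no BMP ligand, had -0.24 (SE 0.31). Bmp2k, a kinase induced by BMP2 and no part of the receptor complex, had levels of -1.38, -1.71 and -1.50 in DIO and -0.43, -0.19 and -0.79 in DIO_CR_WR. It did not overlap, its log2 fold change was 1.06 (SE 0.20; limma adjusted p = 0.112), a level 2.09-fold higher in DIO_CR_WR, and it was 0.91 on slide 1, 1.56 with spike-in scaling and 1.83 on its second probe. On that second probe the levels were -2.61, -4.49 and -4.61 in DIO and -2.15, -2.10 and -1.97 in DIO_CR_WR. There the DIO array of slide 1 lay much nearer the DIO_CR_WR arrays than those of slide 2 did.

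**Figure D3:**
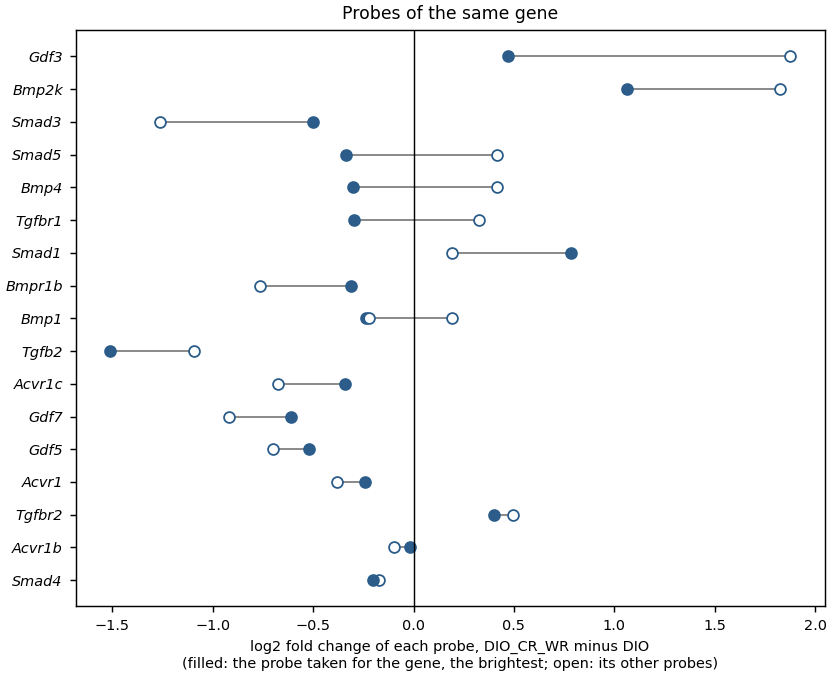
Log2 fold change of each tested probe for the 17 superfamily genes with more than 1 probe measured in both groups, ordered by the gap between their probes; the filled point is the brightest probe, taken for the gene. The probes of Smad4 (-0.20 and -0.17) lie close together, those of Gdf3 (0.47 and 1.88) lie farthest apart, and the lines of Smad5, Bmp4, Tgfbr1 and Bmp1 cross 0.

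How far a value depended on the probe could be seen for 17 members with more than 1 tested probe that was well above background in both groups, which leaves out Gdf1. Their probes shared a sign for 13 and differed in sign for 4 (Bmp1, Bmp4, Smad5 and Tgfbr1). Both groups here means at least 1 array of each. The dimmer probes of Bmp4, Tgfbr1, Gdf7, Bmpr1b and Smad3 were well above background on 2 of 3 DIO_CR_WR arrays, so their values lie near the detection limit. The median gap between the highest and lowest probe was 0.43 on the log2 scale. For 4 of these genes every probe had an unadjusted p under 0.05 in the fit of every probe, namely Tgfb2, Bmp2k, Smad3 and Gdf7.

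**Figure D4:**
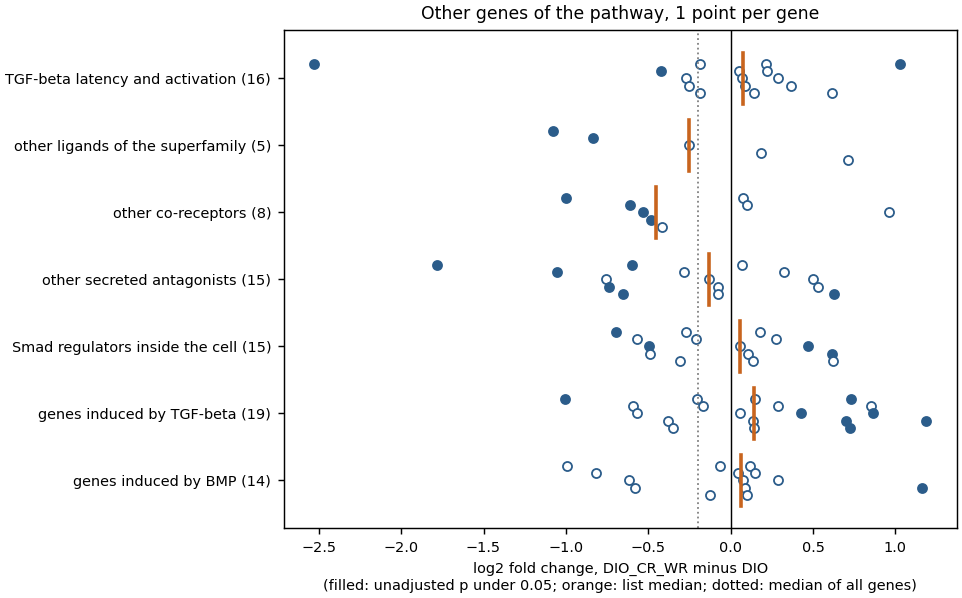
Log2 fold change of other genes of the pathway in 7 lists, 1 point per measured gene, filled where the unadjusted p was under 0.05, with each list's median as an orange bar and the median of all genes as a dotted line. Itgb6 is the point at -2.53, and among the 19 genes induced by TGF-beta 6 filled points lie to the right and 1 to the left. Wfikkn1, among the secreted antagonists, was not measured above background in DIO_CR_WR.

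Other genes of the pathway were taken as lists, and again none passed the adjusted threshold, so they are counted at an unadjusted p under 0.05 in limma, to be read against the 5.38% of all genes that were higher and the 21.8% that were lower. Like the roles, the lists were drawn up with earlier results of these data known, so their counts are no independent evidence. Of 16 measured genes of TGF-beta latency and activation, 1 was higher and 2 were lower at that unadjusted threshold, and the list's median was 0.08. Itgb6 encodes the beta subunit of an epithelial integrin that frees latent TGF-beta. Its levels were -1.79, -1.65 and -2.16 in DIO and -5.14, -3.85 and -4.19 in DIO_CR_WR, with the DIO arrays of both slides far above the others (log2 fold change -2.53, SE 0.35; limma adjusted p = 0.108; -2.61 on slide 1), with a signal well above background on 2 of 3 DIO_CR_WR arrays. Beside it, 6 of 7 epithelial markers of skin or mammary gland were measured, 3 of them well above background on all 6 arrays; none had an unadjusted p under 0.05, their median was -0.46, and their scores were -0.39, 0.42 and 0.55 in DIO and -0.26, -0.35 and 0.03 in DIO_CR_WR. The epithelial scores overlapped between the groups, and their part in the Itgb6 value was not tested. Thbs1, thrombospondin 1, another activator of latent TGF-beta, had 2.51, 2.35 and 1.72 against 3.31, 2.96 and 3.39, without overlap (log2 fold change 1.03, SE 0.25; limma adjusted p = 0.122).

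Of 5 other superfamily ligands, 2 were lower at an unadjusted p under 0.05 and none higher. They were Amh, anti-Müllerian hormone (-1.08, SE 0.32), and Nodal, an embryonic ligand (-0.84, SE 0.26), both dim, with 1 and 2 of the 3 DIO_CR_WR arrays well above background. Of 8 other co-receptors and receptors, 4 were lower, beside 21.8% of all genes, and none higher, with a median of -0.45. Amhr2, the receptor of anti-Müllerian hormone, had levels of 1.23, 1.39 and 1.06 in DIO and 0.32, -0.10 and 0.46 in DIO_CR_WR. The DIO arrays of both slides lay above the others (log2 fold change -0.999, SE 0.20; limma adjusted p = 0.115; -0.998 on slide 1). Rgmb, a BMP co-receptor of the repulsive guidance family, had -0.49 (SE 0.14), which was 0.02 with spike-in scaling.

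Of the 15 other secreted antagonists, 1 was higher (5.38% of all genes) and 5 were lower (21.8%) by the same measure, with a median of -0.13. Wfikkn1 counts among these 5 without a measured level in DIO_CR_WR, where it was well above background on no array. Its values overlapped between the groups, and only a bound can be given, a level at least 1.91-fold higher in DIO. Dand5, which binds Nodal and BMPs, had levels of 1.41, 1.40 and 1.30 in DIO and 0.67, 0.39 and 0.83 in DIO_CR_WR. The groups did not overlap (log2 fold change -0.74, SE 0.17; limma adjusted p = 0.118; -0.78 on slide 1). Among 15 regulators of Smads inside the cell, 2 were higher and 2 lower, with a median of 0.05. Ppm1a, a phosphatase of Smad2 and Smad3, had -0.50 (SE 0.14), and Strap, which helps Smad7 hold the receptor, had 0.47 (SE 0.16).

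The last lists hold genes that the pathway is known to induce in other cells. Of 19 measured genes induced by TGF-beta, 6 were higher at an unadjusted p under 0.05, where 5.38% of all genes were, and 1 was lower; the median was 0.14 and 13 of 19 lay above the median of all genes. Junb, an immediate early factor, had levels of -1.36, -1.17 and -1.13 in DIO and -0.70, -0.39 and -0.39 in DIO_CR_WR. Lox, the enzyme that cross-links collagen, had 1.78, 1.98 and 2.09 against 2.58, 2.57 and 2.88. Neither gene overlapped, and their log2 fold changes were 0.72 (SE 0.16; limma adjusted p = 0.118) and 0.73 (SE 0.17; limma adjusted p = 0.118), or 0.86 and 0.90 on slide 1. The 1 lower gene of the list was Bhlhe40 (log2 fold change -1.005, SE 0.31), without overlap. Its collagen genes had negative values too, each with overlap between the groups. These were -0.35 (SE 0.22) for Col1a1, -0.59 (SE 0.30) for Col1a2 and -0.38 (SE 0.39) for Col3a1. Genes of this list respond to other signals as well. Of 9 markers of fat precursors and fibroblasts, which make much of the matrix, 1 was higher and 1 lower, and their scores overlapped, from -0.06 to -0.04 in DIO and from -0.06 to 0.15 in DIO_CR_WR. The scores of several other marker lists did not overlap and were higher in DIO_CR_WR. These were the lists of mural cells, macrophages, endothelial cells, T cells and lymph node stroma. Those of 6 mural cell markers, 1 of them (Acta2) also in the induced list, were 0.01, -0.27 and -0.32 in DIO and 0.43, 0.04 and 0.11 in DIO_CR_WR, with 1 gene higher at an unadjusted p under 0.05. Those of 7 macrophage markers are given beside Gdf3, those of the endothelial markers beside Smad6, and those of the T cell markers beside Id2. The 4 measured lymph node stroma markers had scores of -0.22, -0.22 and -0.32 in DIO and 0.001, 0.17 and 0.59 in DIO_CR_WR. Of these 4 genes, 2 were higher and 1 was lower at an unadjusted p under 0.05. The part of these cells in the values of the induced genes was not tested.

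Of 14 measured genes induced by BMP, 1 was higher at an unadjusted p under 0.05 and none lower, with a median of 0.06. Id2, an inhibitor of helix-loop-helix factors and a direct BMP target in many cells, had levels of 0.10, -0.46 and -0.02 in DIO and 0.88, 1.23 and 0.99 in DIO_CR_WR. The groups did not overlap (log2 fold change 1.16, SE 0.20; limma adjusted p = 0.108; 0.93 on slide 1). Id2 is also abundant in lymphocytes, and the 7 T cell markers, 4 of them higher at an unadjusted p under 0.05, had scores of -0.92, -0.88 and 0.12 in DIO and 1.06, 0.17 and 0.47 in DIO_CR_WR; their part in the Id2 value was not tested. Sp7, a bone transcription factor, had -0.99 (SE 0.41), with 1 DIO_CR_WR array well above background.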

How the data were processed

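Total RNA of 6 inguinal fat samples was measured on 6 1-colour Agilent arrays. Per the file headers, the deposited intensity of each spot is Agilent Feature Extraction's processed signal, with local background subtracted and no normalization between arrays; the headers give version 10.7.3.1 and the submitters' processing notes 10.7.1.1. Deposited flags of 0 or 1 mark signal well above background, outliers and saturation. A further table covering all samples, with 108 columns of measurements, was left out because its headings name no sample title.

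After 3671 control spots and outlier spots were set aside, spots of each of 55681 probes were averaged as log2 intensity, and each array was centred on its 75th percentile. Probes well above background on at least 3 arrays and with no missing value were kept (38458), and the brightest probe stood for a gene. Groups were compared with limma 3.58.1 in R 4.3.3 (moderated, two-sided, Benjamini-Hochberg over 26178 genes at 0.05). This step was tested on simulated data with independent noise and no slide effect, so that check does not cover effects of slide. Precision is limited by the number of arrays, and no depth applies. Probe positions are on mm9, from the array files; promoters are RefSeq's on GRCm38.p6, and no coordinates were converted. All 53 gene names matched a RefSeq symbol by a probe's accession.

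The members, roles and lists were chosen with earlier results of these data known. Genes named are the 12 members with the smallest p, a set always named (Tgfb1 to Tgfb3, Bmp2, Bmp4, Gdf3, Gdf10, Inhba, Inhbb, Tgfbr1 to Tgfbr3, Acvr1c, Bmpr1a, Bmpr2, Smad3, Smad4, Smad7, Nog and Tgfbi), and the 2 genes with the smallest p of each pathway list, of which 1 is not reported here. Smad6, the other members given with values, Bhlhe40 and the collagen genes lie outside that rule and were chosen after their values were seen. Cell type markers were scored as lists. Alternatives were normexp (offset 50) with quantile normalization, quantile normalization, median centring, E1A spike-in scaling, no filter, signal on all 6 arrays, every probe, the mean of probes, a trended and robust variance, a block for replicate number, a block for slide, slide 1 alone, age as a covariate, and leaving out each array.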

Additional observations from a re-analysis of the deposited data

How the results depend on the processing

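None of the 46 superfamily genes passed the adjusted threshold (limma), and alternatives not named next gave 0 too. Just 1 gene passed where signal on all 6 arrays was asked for and 1 with a trended and robust variance (Gdf1 both times), and leaving out single arrays gave 0 to 7. In the reported fit 3 members had an unadjusted p under 0.05 and a higher level, 9 had one and a lower level, and 12 showed no overlap; the median log2 fold change was -0.19. Inhbe, without a measured level in DIO_CR_WR, is among the 9, the 12 and the 3 lower with spike-in scaling. Shares in brackets are those of all genes (or probes) in the same fit. Higher genes numbered 10 with spike-in scaling (21%), 8 with no filter on dim probes (11.9%), 6 probes in the fit of every probe (5.29%), 8 with age as a covariate (4.59%) and 3 to 6 without single arrays (6 without DIO replicate 1, 8.73%). Lower genes numbered 4 with median centring (15.2%), 3 with spike-in scaling (2.95%), 15 probes in the fit of every probe (21%), 4 with slide as a block (6.01%), 2 on slide 1 alone (5.13%), 5 with age as a covariate (19.6%) and 5 to 15 without single arrays (15 without DIO replicate 1, 28.6%; 5 without DIO replicate 2, 9.37%, or DIO_CR_WR replicate 2, 13.7%). Those without overlap numbered 23 probes in the fit of every probe (33.1%), 26 genes on slide 1 alone (62.6%), where DIO is a single array, and 13 to 28 without single arrays (28 without DIO replicate 1, 56.4%; 19 without DIO_CR_WR replicate 3, 46.5%). The median was -0.045 with normexp and quantile normalization, -0.033 with quantile normalization, -0.068 with median centring, 0.31 with spike-in scaling, -0.049 with no filter, -0.065 with the mean of a gene's probes, 0.035 with slide as a block or slide 1 alone, -0.36 with age as a covariate and -0.19 to -0.11 without single arrays. The largest count of calls came without DIO replicate 1, where 7 members passed (15.4%); the cause of these shifts was not tested.

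Of the genes named, those listed next changed sign under an alternative. With spike-in scaling the log2 fold change was 0.040 for Bmpr1a, 0.49 for Bmp2, 0.20 for Bmp4, 0.45 for Inhbb, 0.20 for Tgfbr1, 0.43 for Tgfbr3, 0.16 for Acvr1c, 0.00023 for Bmpr2, 0.30 for Smad4, 0.47 for Tgfbi, 0.017 for Rgmb and 0.0033 for Ppm1a. With slide as a block, and on slide 1 alone, it was 0.37 for Bmp2, 0.15 for Bmp4, 0.16 for Inhbb, 0.27 for Bmpr2 and 0.13 for Tgfbi. With normexp and quantile normalization Bmp2 had 0.063, Tgfbr3 0.15 and Tgfbi 0.21. With quantile normalization alone Inhbb had 0.063, Tgfbr3 0.12 and Tgfbi 0.23. Median centring gave 0.11 for Bmp2, 0.070 for Inhbb, 0.047 for Tgfbr3 and 0.085 for Tgfbi. The mean of a gene's probes gave 0.058 for Bmp4 and 0.013 for Tgfbr1. Age as a covariate gave -0.94 for Tgfb1, -0.33 for Tgfbr2 and 0.28 for Tgfbr3. Without single arrays, Tgfb1 ran from -0.18 to 0.66, Bmp2 from -0.20 to 0.21, Inhbb from -0.21 to 0.22 and Tgfbi from -0.12 to 0.080.

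No label pairs the samples. Deviations of arrays of the same number from their group means correlated at -0.01, -0.12 and -0.24 across genes, which are not independent replicates, and those of other numbers at -0.11 to 0.24. With the replicate number as a block, 5 members were higher (4.77% of all genes) and 8 were lower (18.9%) at the unadjusted threshold, and none passed the adjusted threshold.

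With 3 arrays a group, the age labels, which may not be true ages and follow the order of the samples, do not overlap between the diet histories. The slides coincide with diet history in part. Within each group the age labels rise with replicate number. The fit with age as a covariate extends that trend across the groups, so it cannot separate age from diet history. Scale is the other limit: the log2 75th percentile less the spike-in mean was -1.87 on DIO replicate 1, -2.47 and -2.32 on the DIO arrays of slide 2 and -1.76 to -1.69 on the DIO_CR_WR arrays, so it also differed between the slides within DIO. Genes near background, such as Inhbe, Nog, Amh and Sp7, have folds that are poorly bounded. Whether a probe lies in an exon or an untranslated region was not analysed here.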
